A study of Rattus norvegicus with 4 samples.

Results

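The regions described here are 368 bins of 1 kb that held an excess of Hdac3 tags in differentiating rat oligodendrocytes and few p300 tags. They came from 2558152 bins that tile chromosomes 1 to 20 of the rn4 genome. Each read 5′ end with a score of at least 80 was moved 100 bp along its strand and counted as a tag. A bin was called where its Hdac3 count at d3 was at least 3-fold over background with a Poisson upper tail below 1e-05. Background was the largest of the genome mean and the means of the nearest 10 and nearest 50 bins. This call was met by 835 bins, which is 0.0326% of all bins. Of these, 368 had a summed p300 count, OPC and d3 together, under 2-fold over its own background (44.1%, exact Clopper-Pearson 95% interval 40.7 to 47.5%), and 467 had 2-fold or more. Among all bins of the genome, 5.14% had p300 at 2-fold or more. The 368 bins make up 0.0144% of the genome tiled. Because Hdac3 d3 counts and summed p300 counts chose the bins, both are given as description. The Hdac3 OPC library, the division of p300 tags between stages and the position of the bins were not used in the choice. The limit on the p300 sum does tie the p300 counts in OPCs and at d3 within a bin. The strand of Hdac3 d3 and p300 reads entered it through the 100 bp move.

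The study made 4 ChIP-seq libraries, 1 per group, from primary oligodendrocyte precursor cells (OPCs) of Sprague Dawley rat pups at postnatal day 2. The groups were Hdac3 in OPCs, Hdac3 at d3, p300 in OPCs and p300 at d3, where d3 is the title of the differentiating oligodendrocyte samples. OPCs were expanded with 10 ng/ml PDGF-AA plus 20 ng/ml bFGF. Differentiation was driven with 15 nM thyroid hormone (T3) plus 10 ng/ml CNTF, a cytokine. Usable tags numbered between 2607428 (p300 in OPCs) and 6421863 (Hdac3 at d3), or 1.02 to 2.51 tags in the average bin. With 1 library per group there is no spread between cultures, and so no test of a difference between stages or between antibodies. The intervals below cover counting error only, and no input library was used here.

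Hdac3 is a class I histone deacetylase that works mainly inside the NCoR and SMRT corepressor complexes and removes acetyl groups from histone tails. p300 is a histone acetyltransferase that adds such groups, among them the H3K27 acetylation that marks active enhancers. Deacetylases and acetyltransferases often occupy the same active regulatory elements, which makes sites with Hdac3 and little p300 the less usual case. In the oligodendrocyte lineage, histone deacetylases are known to be needed for precursors to leave the proliferative state and make myelin.

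The p300 level of the 368 bins was low but was not absent. Together they held 1937 p300 tags, 1.32-fold over background (1.26 to 1.38), with a median of 1.35-fold, an upper quartile of 1.66 and a highest value of 1.97. For scale, all bins of the genome under the same 2-fold limit had a summed p300 level of 0.686-fold, since the background is the largest of several means and exceeds the average bin. Uncalled bins that held 13 to 20 Hdac3 d3 tags under that limit stood at 1.24-fold (1.21 to 1.26). Of the 368 bins, 273 had p300 above background (74.2%). Most of those uncalled bins did too, with a median of 1.27-fold and a lower quartile of 0.924-fold. Among all bins under the limit the median was 0.588-fold. Depth leaves most single bins undecided. The upper 95% limit of the p300 fold was under 3 in 171 bins and under 2 in 23, and it lay under the lower limit of the Hdac3 d3 fold in 109. Bins with p300 under 2-fold is therefore a more exact name than bins without p300.

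**Figure D1:**
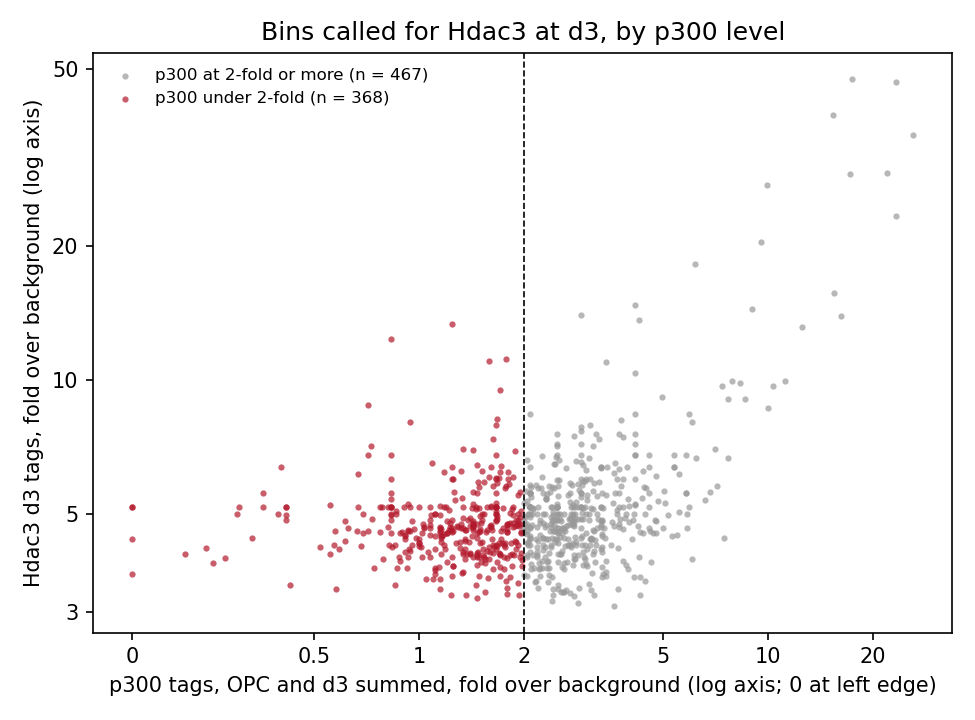
Each point is 1 of the 835 bins called for Hdac3 at d3. The x axis is the p300 count of both stages summed and the y axis the Hdac3 d3 count, both as fold over background on log axes. The dashed line is the 2-fold p300 limit, and bins with no p300 tag are drawn at the left edge. The 368 bins to its left stay between 3.24-fold and 13.3-fold for Hdac3, while the 467 to its right reach 47.4-fold.

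No p300 tag at all was found in 4 bins. They were chr3:90961001-90962000 with 13 Hdac3 d3 tags and 2 Hdac3 OPC tags, chr5:118399001-118400000 with 19 and 4, chr14:69388001-69389000 with 13 and 2, and chr16:7335001-7336000 with 14 and 4. A count of 0 allows up to 3 tags, which would be between 0.682-fold and 1.24-fold over the p300 background in these bins. In these 4 bins, even the limit set by a count of 0 stayed under the 2-fold border.

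Hdac3 enrichment at d3 was modest in nearly all of the bins. The count per bin ran from 13 to 55 tags with a median of 16 and an interquartile range of 14 to 19, against a genome mean of 2.51. The fold over background ran from 3.24 to 13.3, with a median of 4.60. At least 5-fold enrichment was reached by 113 bins. They were 33.7% of the called bins at that limit, against 44.1% under the 3-fold rule. In the 467 called bins with p300 at 2-fold or more the median Hdac3 d3 fold was 4.87 and the highest was 47.4. The median bin was thus of like height in both sets, but the upper part was lower in the 368 bins. Their upper quartile was 5.16-fold, against 5.63-fold in the 467. Their summed level was 4.67-fold (4.56 to 4.79), against 5.57-fold (5.46 to 5.68). Every bin above 13.3-fold lay on the p300 side. Of the 467 bins, 83 held 10 or more Hdac3 d3 tags of score under 80, and these stood at 7.87-fold. Those with 0, with 1 or 2, and with 3 to 9 such tags stood at 4.69-fold, 4.83-fold and 4.94-fold. The same classes of the 368 bins stood at 4.54-fold, 4.64-fold and 4.68-fold, and their 9 bins with 10 or more at 6.17-fold.

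The highest bin was chr3:100431001-100432000, with 36 Hdac3 tags at d3 (13.3-fold, 9.34 to 18.5) and 2 in OPCs. It held 2 p300 tags in OPCs and 1 at d3. Next was chr2:108040001-108041000, with 31 Hdac3 tags at d3 (12.4-fold, 8.39 to 17.5) and a single tag in each of the other libraries. In both bins the tags were almost all from the Hdac3 d3 library.

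The third, chr19:10083001-10084000, held 49 Hdac3 tags at d3 (11.1-fold, 8.24 to 14.7) and 7 in OPCs. Its 11 p300 tags, 4 in OPCs and 7 at d3, were 1.77-fold over a high local background. Here p300 lay close to the limit, so the bin is less clearly poor in p300 than the first pair.

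The next bins differed, because Hdac3 was high at both stages. In chr7:99315001-99316000 there were 43 Hdac3 tags at d3 (11.03-fold) and 21 in OPCs (14.0-fold, 8.67 to 21.4), against 1 and 5 p300 tags in OPCs and at d3. In chr5:2318001-2319000 there were 55 and 26 Hdac3 tags (9.48-fold at d3 and 13.7-fold in OPCs, 8.94 to 20.1), against 4 and 5 p300 tags. Scaled to library depth (RPM), Hdac3 in these bins was nearly equal between stages, with d3 to OPC ratios of 0.965 (0.560 to 1.71) and 0.997 (0.615 to 1.66).

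The remaining bins among the 10 highest had d3 to OPC ratios above 1. They were chr15:101503001-101504000 with 29 Hdac3 tags at d3 and 3 in OPCs, chr1:171619001-171620000 with 27 and 5, chr20:48393001-48394000 with 24 and 2, chr2:98205001-98206000 with 23 and 3, and chr2:127025001-127026000 with 30 and 3. Their p300 tags, both stages summed, numbered 2, 6, 3, 4 and 6. The ratio of d3 to OPC in these 5 bins ran from 2.54 (0.966 to 8.46) at chr1:171619001-171620000 to 5.65 (1.404 to 49.4) at chr20:48393001-48394000. The first of these was unlike the top pair, with Hdac3 in OPCs at 3.85-fold (1.25 to 8.98) and p300 at d3 alone at 2.27-fold.

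**Figure D2:**
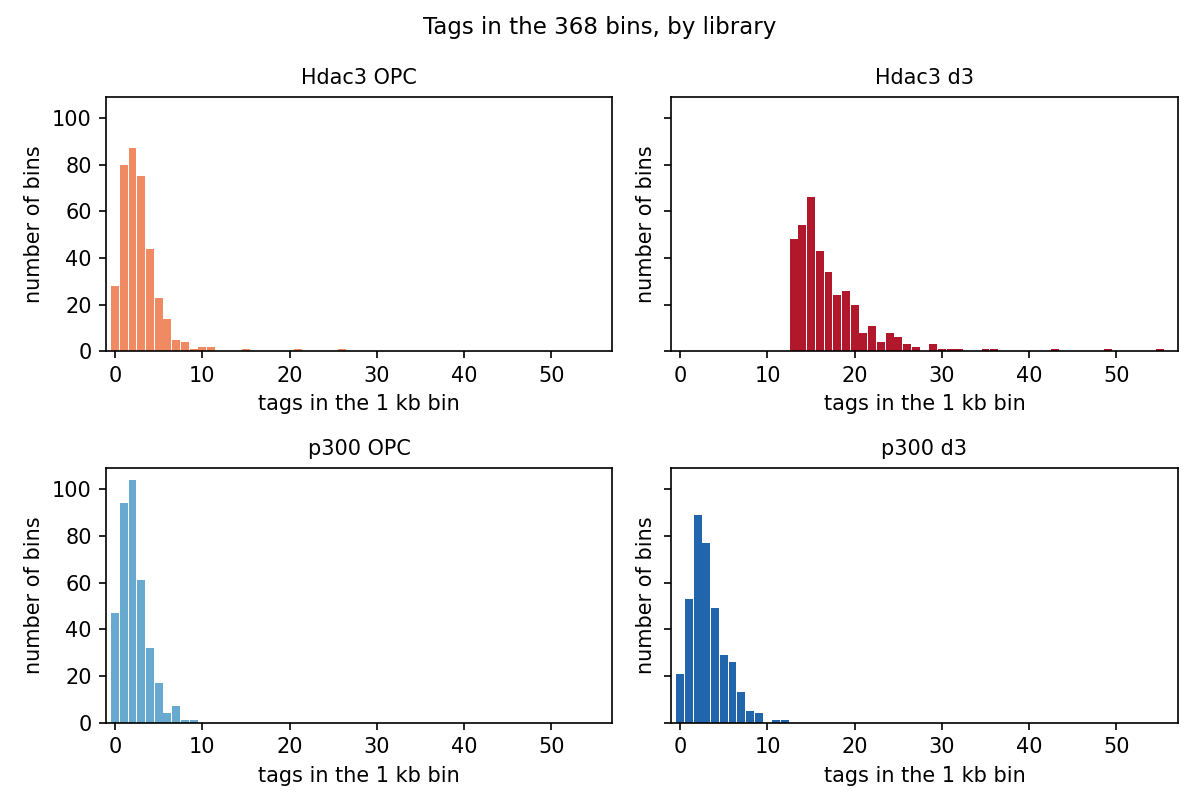
Number of the 368 bins (y axis) holding each number of tags (x axis), with 1 panel per library. Hdac3 d3 counts start at 13, the lowest count that passed the call, whereas the other libraries have medians of 2 or 3 tags and reach 26 (Hdac3 OPC), 9 (p300 OPC) and 12 (p300 d3).

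Hdac3 in OPCs, which had no part in the choice, was above background at these bins but by little. The 368 bins held 1034 Hdac3 OPC tags, 1.56-fold over background (1.47 to 1.66). The median bin had 2 tags and stood at 1.404-fold, with an interquartile range of 0.745 to 2.02, and 28 bins had none. All bins of the genome together stood at 0.782-fold, but the uncalled bins with 13 to 20 Hdac3 d3 tags and p300 under 2-fold stood at 1.30-fold (1.26 to 1.33). Relative to the library mean those uncalled bins were at 2.59, and the 368 bins at 2.38 (2.23 to 2.53). Much of the excess over the genome was thus also present in uncalled bins of like d3 count. At least 2-fold enrichment in OPCs was seen in 104 of the 368 bins (28.3%, 23.7 to 33.2%) against 9.34% of all bins, and at least 3-fold in 33 (8.97%, 6.25 to 12.4%) against 2.12%. The full call was met by 3 of the 368 (0.815%, 0.168 to 2.36%), against 0.0041% of all bins. The OPC library held 1.18 tags in the average bin against 2.51 at d3. A bin of equal fold therefore meets the Poisson level less easily in OPCs, and an uncalled bin does not show absence of Hdac3.

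Called bins with more p300 had more Hdac3 in OPCs. The 467 bins with p300 at 2-fold or more stood at 3.23-fold for Hdac3 OPC (3.11 to 3.35) with a median of 1.97-fold, and 55 of them were called. Of these 55, 49 lay among the 83 bins with 10 or more Hdac3 d3 tags of score under 80. Within the 368 bins the relation to p300 was weak and not even (Spearman rho 0.123 over bins, which are sparse counts and share libraries). The summed level was 1.31-fold (0.941 to 1.77) in the 20 bins with p300 under 0.5-fold and 1.23-fold (1.04 to 1.45) in the 71 from 0.5 to 1. It was 1.58-fold (1.43 to 1.74) in the 142 bins from 1 to 1.5 and 1.73-fold (1.57 to 1.90) in the 135 from 1.5 to 2. The median bin of these 4 bands stood at 1.56-fold, 1.21-fold, 1.404-fold and 1.47-fold, highest in the lowest p300 band, and the 3 bins called in OPCs lay in the upper pair of bands. The 154 bins just over the limit, from 2 to 2.5, stood at 1.80-fold (1.64 to 1.96), so no step was seen at 2-fold. Only the 92 bins with p300 at 4-fold or more stood far apart, at 7.56-fold (7.19 to 7.96).

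**Figure D3:**
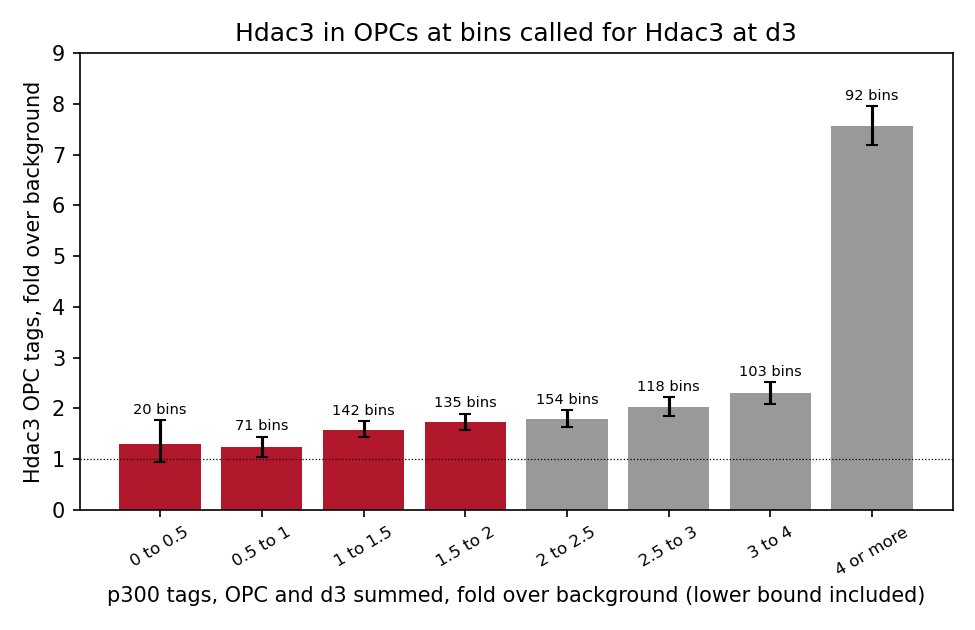
Hdac3 OPC tags as summed fold over background (y axis) in the 835 bins called for Hdac3 at d3, grouped by p300 fold (x axis). Red bars are the bins with p300 under 2-fold, grey bars the others, and error bars are exact Poisson 95% intervals. The bars run from 1.23-fold to 2.30-fold below a p300 level of 4-fold and reach 7.56-fold above it.

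Most of the bins highest for Hdac3 in OPCs also collected reads of low score, which the choice had left out. The 3 bins called in OPCs were chr7:99315001-99316000, chr5:2318001-2319000 and chr4:184112001-184113000, the last with 24 Hdac3 tags at d3 and 11 in OPCs (5.79-fold, 2.89 to 10.4). They held 90, 30 and 52 Hdac3 d3 tags of score under 80, where the genome mean was 0.834 and the median of the 368 bins was 2. Next by OPC fold among the bins with at least 20 d3 tags was chr8:24909001-24910000, with 22 Hdac3 tags at d3 and 8 in OPCs (5.48-fold, 2.37 to 10.8). It held only 6 low-score tags at d3 but had 15 p300 tags, 1.92-fold over background. It was followed by chr1:70432001-70433000, where 20 Hdac3 tags at d3 and 11 in OPCs stood beside 140 and 62 tags of low score. This bin adjoins a called bin with more p300, chr1:70431001-70432000, and so may not be a separate site. The neighbour held 42 Hdac3 tags at d3 and 18 in OPCs (11.25-fold, called), with p300 at 2.90-fold.

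The scale of the score is undocumented, it was read as a mapping quality, and the part of low-score sites in the OPC level was not tested beyond the values here. In all, 9 of the 368 bins held 10 or more Hdac3 d3 tags of low score, and their Hdac3 OPC level was 5.52-fold (4.51 to 6.68). The 91 bins with no such tag stood at 1.33-fold (1.15 to 1.53), the 165 with 1 or 2 at 1.402-fold (1.27 to 1.54) and the 103 with 3 to 9 at 1.60-fold (1.42 to 1.79). Without those 9 bins the Hdac3 OPC level was 1.44-fold (1.35 to 1.54) and no bin was called in OPCs. Low-score p300 tags, both stages summed, numbered 3 to 180 in the 9 bins, against a genome mean of 0.689. They outnumbered the p300 tags of score 80 or more in all of the 9 except chr17:17521001-17522000, which held 15 of low score and 16 of high. The 3 bins called in OPCs held 15, 11 and 21 low-score p300 tags against 6, 9 and 8 of score 80 or more. The extreme was chr6:22163001-22164000, with 180 against 5. The low p300 count of such bins depends on the score limit. Among the 467 bins with more p300, 83 held 10 or more low-score tags and stood at 6.96-fold in OPCs. The other 3 low-score classes of that set stood at 1.63-fold, 1.73-fold and 2.22-fold.

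Fewest Hdac3 tags in OPCs, among the 73 bins with at least 20 tags at d3, were found at chr3:136347001-136348000 and chr4:83164001-83165000. Each held 22 Hdac3 tags at d3 and none in OPCs. The first had 0 p300 tags in OPCs and 7 at d3, and the second 2 at each stage. A count of 0 allows up to 2.46-fold and 1.38-fold over the OPC background in these bins, and the exact upper limits are 3.02-fold and 1.69-fold. Both exact limits lie above the 1.56-fold level of the 368 bins together, though the limit of 3 tags at chr4:83164001-83165000 lies below it. By the exact limits, a level of that size cannot be told from none in either bin. In chr1:23839001-23840000, chr2:242200001-242201000 and chr16:48749001-48750000, 22, 24 and 20 Hdac3 tags at d3 met a single tag in OPCs. Their d3 to OPC ratios of 10.4 (1.68 to 428), 11.3 (1.84 to 465) and 9.42 (1.51 to 391) have wide intervals, as a single OPC tag sets each one.

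Over all 368 bins Hdac3 stood at 987 RPM at d3 and 342 in OPCs, a ratio of 2.89 (2.70 to 3.09), and 362 bins were higher at d3. The d3 count chose the bins, so this ratio and that count describe the choice. In the 467 bins with more p300 the ratio was 1.68 (1.62 to 1.75). Of the 2943 Hdac3 OPC tags of those 467 bins, 1677 lay in the 83 bins rich in low-score tags. The ratio without those 83 bins was not computed, so the gap between 2.89 and 1.68 is not a trait of the p300 level alone. The choice was also made the other way round, with the same rule applied to Hdac3 in OPCs. It gave 105 called bins, 32 of them with p300 under 2-fold. In those 32, Hdac3 was 7.45-fold over background in OPCs and 2.33-fold at d3 (2.06 to 2.63), with a median of 1.41-fold at d3. Leaving out the 3 bins shared by both choices, the value at d3 was 1.43-fold (1.20 to 1.68) in 29 bins, and that in OPCs 1.48-fold (1.39 to 1.58) in the 365 bins called at d3. Leaving out bins called at the other stage lowers both of these values by construction, and over the full sets the values were 2.33-fold and 1.56-fold (1.47 to 1.66). Of the 73 OPC-called bins with more p300, 55 were called at d3 as well.

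The p300 tags of the 368 bins were divided evenly between the stages. They came to 302 RPM in OPCs and 322 at d3, a ratio of d3 to OPC of 1.07 (0.973 to 1.17). The choice capped the sum of the p300 libraries and not the ratio between them. In the 467 bins with more p300 the ratio was 1.01 (0.958 to 1.06). Counted separately, p300 was at least 2-fold over background in OPCs in 61 of the 368 bins (16.6%, against 7.72% of all bins) and at d3 in 69 (18.8%, against 8.33%). It was under 2-fold in both libraries in 238 bins, while 130 passed 2-fold at 1 stage and fell under the limit only in the sum. The limit on the sum holds these counts down and keeps a bin high at 1 stage low at the other. Over bins, p300 fold in OPCs and at d3 had a Spearman rho of -0.280 in the 368 bins. In all 835 called bins it was 0.338. A full p300 call at either stage was met by none of the 368 bins, against 0.00477% of all bins in OPCs and 0.00704% at d3. Among the 467 bins with more p300 it was met by 37 in OPCs and 48 at d3. The limit on the summed count leaves little room for such a call, so the count of 0 describes the choice.

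The surroundings of the bins held more tags than the genome at large in every library. Over the nearest 50 bins, the median density relative to the library mean was 1.25 for Hdac3 at d3, 1.27 for Hdac3 in OPCs, 1.35 for p300 at d3 and 1.32 for p300 in OPCs. Around the 467 bins with more p300 it was 1.23, 1.23, 1.26 and 1.28. The p300 limit of the choice is set against these local means where they exceed the genome mean.

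In the bin itself Hdac3 at d3 stood at 6.86 times its library mean, against 1.78 and 1.84 in the adjoining bins. Hdac3 in OPCs stood at 2.38 (2.23 to 2.53) in the bin and at 1.73 and 1.54 on either side. For p300 the step was smaller. In OPCs it was 2.10 (1.96 to 2.25) in the bin against 1.91 and 1.85 beside it, and at d3 2.24 (2.11 to 2.37) against 1.78 and 1.83. The p300 value in the bin is held down by the choice. Around the bins with more p300 all libraries peaked, at 8.96 and 5.33 for Hdac3 and 5.89 and 5.85 for p300 at d3 and in OPCs. Those bins were set apart by a high p300 count in the bin, so their p300 peak describes the choice.

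**Figure D4:**
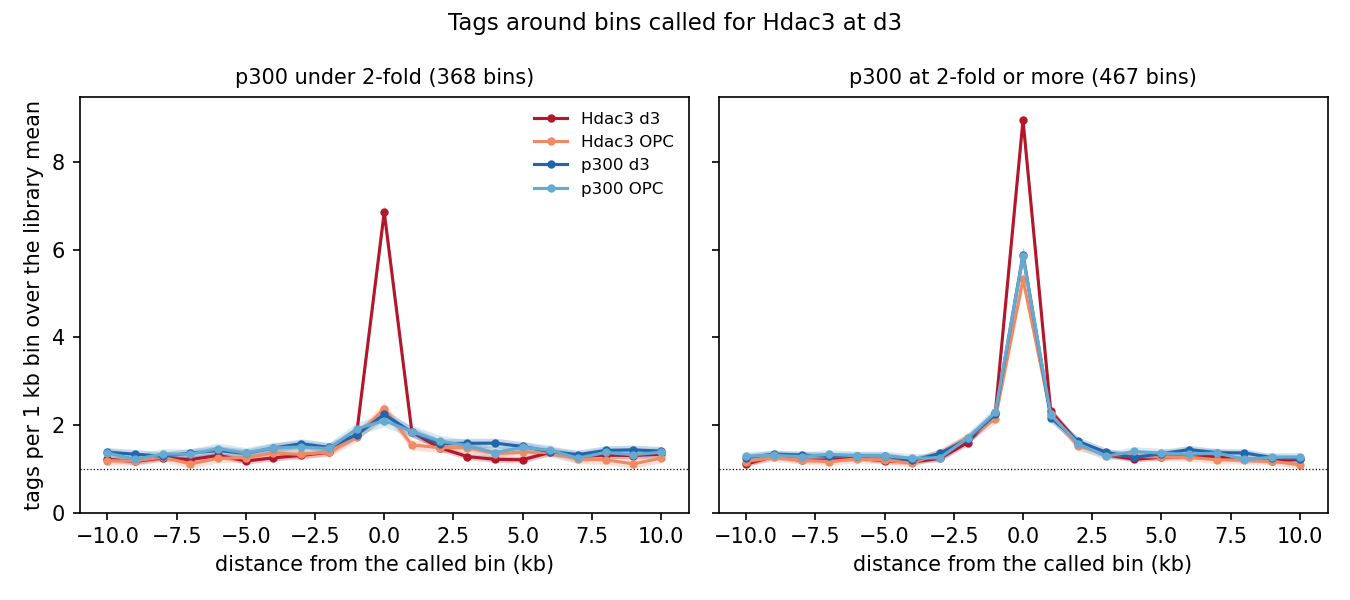
Mean tags per 1 kb bin relative to the library mean (y axis) from 10 kb before to 10 kb after the called bin (x axis). The left panel shows the 368 bins with p300 under 2-fold, the right panel the 467 others, lines are the 4 libraries and shading is the exact Poisson 95% interval. On the left only Hdac3 at d3 forms a tall peak, at 6.86, and the other libraries stay between 2.10 and 2.38 in the central bin.

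The strands of the tags gave a measure of site shape that the choice of bins had not used for Hdac3 in OPCs. For p300 the choice is not neutral, since facing ends are moved toward the site and count toward the p300 limit. Reads from fragments around a bound site have 5′ ends that face it, forward reads before the site and reverse reads after it. The centre of each site was set at the densest 200 bp of Hdac3 d3 tags, and 5′ ends within 200 bp of it were counted. Facing ends made up 321 of 536 for Hdac3 in OPCs (59.9%, exact interval 55.6 to 64.1%), where ends without such an order would give equal numbers of both kinds. For p300 in OPCs the count was 190 facing ends among 379 (50.1%, 45.0 to 55.3%). For p300 at d3 it was 305 among 576 (53.0%, 48.8 to 57.1%), and both intervals include equal numbers. Thus the few Hdac3 OPC tags at these bins were ordered around the d3 centre, and no such order was detectable for p300 at this depth and under the p300 limit.

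The facing share for Hdac3 in OPCs was 57.4% (52.9 to 61.9%) without the 3 bins called in OPCs and 56.95% (52.2 to 61.6%) without the 9 bins rich in low-score tags. Those intervals overlap that of the summed p300 tags (51.8%, 48.6 to 55.0%, for all 368 bins). In the 467 bins with more p300 the facing share was 56.8% (54.6 to 58.9%) for Hdac3 in OPCs and 57.9% (56.3 to 59.4%) for summed p300. Uncalled bins with 13 to 20 Hdac3 d3 tags and p300 under 2-fold gave 56.7% (54.6 to 58.7%) for Hdac3 in OPCs and 52.7% (51.3 to 54.0%) for summed p300. The facing order of Hdac3 OPC tags was therefore also seen in uncalled bins of like count.

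**Figure D5:**
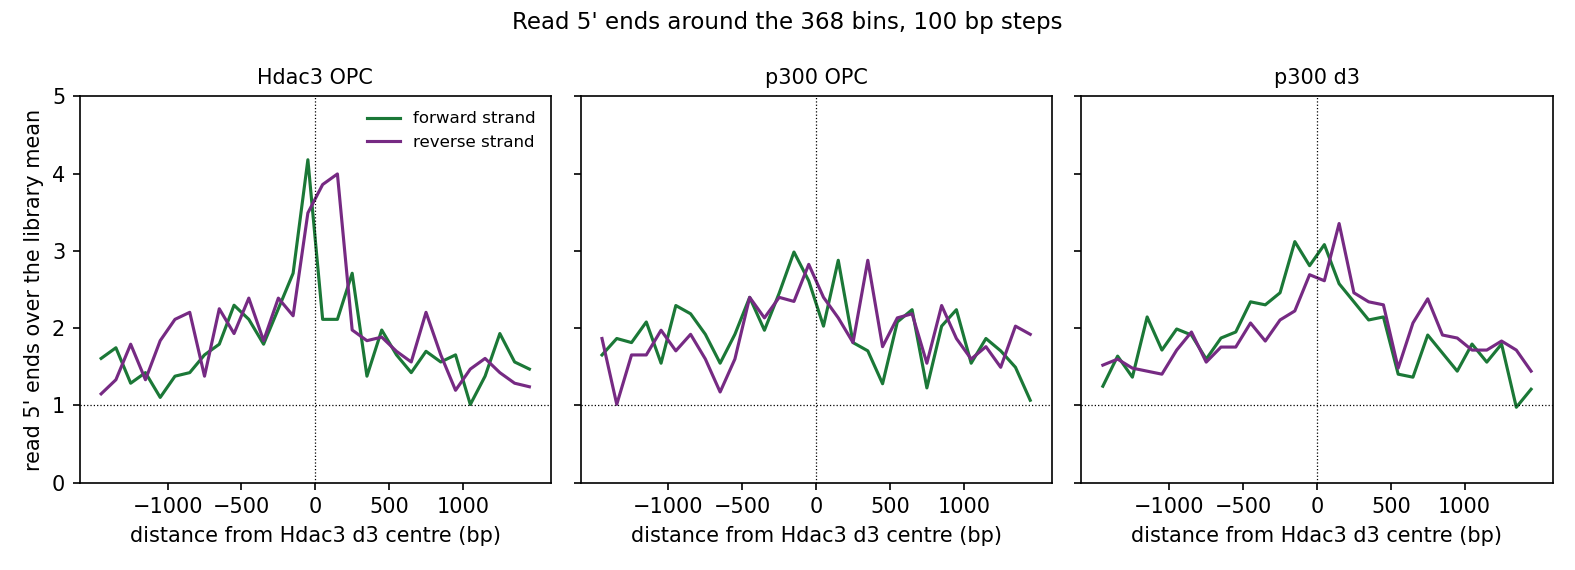
Read 5′ ends in 100 bp steps relative to the library mean (y axis) by distance from the centre of the Hdac3 d3 tags (x axis), summed over the 368 bins. Green is the forward and purple the reverse strand. For Hdac3 in OPCs the forward strand peaks just before the centre at 4.18 and the reverse strand just after it. The p300 strands are mixed in OPCs and only slightly parted at d3.

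Within the bins, Hdac3 d3 reads came from both strands in all 368, with 48.8% forward (47.6 to 50.04%). The mean reverse 5′ end lay a median of 94.5 bp after the mean forward 5′ end, with an interquartile range of -3.45 to 168, and the offset was above 0 in 270 bins. In the 467 bins with more p300 the median was 68.0 bp, and the offset was above 0 in 326. Uncalled bins with 13 to 20 Hdac3 d3 tags and p300 under 2-fold had a median of 58.7 bp. There it was above 0 in 1058 of 1633 bins, so a positive offset was not particular to called bins. Moving tags before the call favours a positive offset. Bins called without moving them had a median offset of 71.4 bp (54.7 to 93.1). A median of 47.1% of the Hdac3 d3 tags lay in the densest 200 bp, the same as in the 467 bins with more p300. Among bins of 13 to 16 tags the median was 46.2% in both sets and in uncalled bins, and the upper quartile was 53.8% in both called sets and 50% in uncalled bins. Among the 10 bins of highest Hdac3 d3 fold the densest 200 bp held between 10 of 24 tags, at chr20:48393001-48394000, and 50 of 55, at chr5:2318001-2319000. In the highest bin, chr3:100431001-100432000, it held 24 of 36. Uncalled bins of like tag count were not compared with these.

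The bins were scattered singly over all 20 chromosomes. Their number per 100 Mb ran from 8.22 on chromosome 17 (3.55 to 16.2, 8 bins) to 21.9 on chromosome 19 (11.7 to 37.5, 13 bins), intervals that overlap. Chromosome 1 held the most, 47. The median distance from a bin to its nearest fellow was 2775 kb, and 1 pair adjoined, chr4:4151001-4152000 and chr4:4152001-4153000 with 19 Hdac3 d3 tags each and 2 and 1 in OPCs. A called bin with more p300 lay within 10 kb of 3 of the 368 bins and within 100 kb of 17. Of the 467 bins with more p300, 18 adjoined another of their kind and 66 had one within 100 kb, against 2 and 4 of the 368. Gene and sequence context was not analysed here, because the annotation at hand belongs to another assembly than rn4.

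The borders of the set cut through a continuum. Just under the p300 limit lay chr10:76444001-76445000, chr3:104955001-104956000 and chr5:165092001-165093000, with 12, 11 and 10 p300 tags (1.97-fold, 1.96-fold and 1.96-fold). Just over it, at exactly 2.00-fold, lay chr1:26721001-26722000, chr2:215452001-215453000 and chr6:22444001-22445000, with 7, 6 and 7. A single tag parts these bins. At the Hdac3 border, the bins nearest inside were chr3:129031001-129032000 and chr9:28244001-28245000 with 13 tags each and chr1:187924001-187925000 with 15. The nearest outside were chr2:244168001-244169000 with 14 and chr1:250657001-250658000 and chr10:108203001-108204000 with 16 each. The Poisson level depends on the background of the bin as well as on its count.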

How the data were processed

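Each library was deposited as a list of aligned reads giving position, strand and score. The submitters' processing notes name build rn4 and MACS 1.4.0 without their roles. Aligner and read filters were not given in the sources used here. Each score deposited by the authors is a whole number from 8 to 100 on an undocumented scale, read here as a mapping quality. No 5′ end occurred more than 1 time per strand, so repeats had been removed and narrow sites are capped.

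Tags of score 80 or more made up 72.7 to 78.0% of reads on chromosomes 1 to 20. They were counted in 1 kb bins with Python 3.11.15, numpy 2.4.6 and scipy 1.17.1. Intervals are exact Poisson (fold over background), Clopper-Pearson (shares) and conditional binomial (ratios of depth-scaled tags, RPM), all at 95%. The interval of the median offset comes from order statistics. Reads without molecular identifiers are not independent molecules, so intervals and limits of a 0 count cover counting error only. The calling rule and intervals were run on simulated Poisson counts with planted bins. Such counts lack spread beyond counting error, so they check the code and not the calls made on these reads. Groups came from sample titles, and no test between groups was made.

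The bins, comparisons and lists were chosen with earlier results of these data known. Named bins are the 10 of highest Hdac3 d3 fold, the 5 highest and 5 lowest by Hdac3 OPC fold among those with at least 20 d3 tags, all called in OPCs, 3 on each side of either limit, and the adjoining pair. The bins without p300 tags and those rich in low-score tags were named after their values were seen. A planned lookup of lineage genes was not run, because no rn4 annotation was used here.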

Additional observations from a re-analysis of the deposited data

How the results depend on the processing

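Alternatives changed 1 choice at a time. The ratio of p300 at d3 to OPC stayed between 1.02 and 1.13 over 16 alternatives. The strand offset, recomputed under 7 alternatives (read score, Poisson level, fold, low-score bins left out, ends not moved), stayed between 70.4 and 99.2 bp. It was not recomputed for other bins, p300 limits, thinning or background. The number of bins was 47 at a Poisson level of 1e-08, 113 at 5-fold, 233 with p300 under 1.5-fold, 239 with p300 under 2-fold in each library, 98 with Hdac3 d3 thinned to OPC depth and 599 with the genome mean as only background. In the same order their share of called bins was 23.3%, 33.7%, 27.9%, 28.6%, 39.2% and 19.3%. The share was 39.4% with reads of any score and 48.9% with bins shifted by 500 bp.

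The Hdac3 OPC fold was 2.38 at 1e-08, 1.92 at 5-fold, 1.46 with p300 under 1.5-fold, 1.79 with thinning, 1.89 with the genome mean, 1.89 with all reads and 1.72 with 500 bp bins. Leaving out bins rich in low-score tags, an alternative added after seeing the data, gave 1.44. The Hdac3 d3 to OPC ratio was 2.20 with all reads, 3.82 with 500 bp bins, 3.49 with thinning and 3.09 without bins rich in low-score tags. Bins also called in OPCs numbered 26 with all reads, 1 with 500 bp bins, 1 with p300 under 1.5-fold and 0 without bins rich in low-score tags. The cause of these shifts was not tested. Fold stayed above 1 and the ratio above 2 in all of them. Each alternative still chose bins by a high Hdac3 d3 count, so a ratio above 1 describes the choice. Uncalled bins with 13 to 20 Hdac3 d3 tags and p300 under 2-fold also had a ratio of 2.15 (2.09 to 2.22).

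No paired analysis was possible because each group held 1 library. Single bins hold few OPC and p300 tags, so depth limits statements on any 1 bin to large differences.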

Other observations

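Chromosome X was outside the bins described above. Under the same rule, with chromosome X added to the background, 12 of its 160700 bins were called for Hdac3 at d3, and 3 of these had p300 under 2-fold. The 3 bins held 41 Hdac3 tags at d3. Hdac3 in OPCs was 3.77-fold over background there (2.01 to 6.45), and none of the 3 was called in OPCs.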
